A study of Homo sapiens with 4 samples.

Results

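Treated H1299 cells were compared by whether they carried S100A6, a gene with no listed count in the untreated line in these data. Cells of the treated H1299 library with at least 8000 counts over genes and transposable elements (TE) were used. Members were chosen by their own S100A6 counts: a cell with 2 or more was positive and a cell with 0 was negative. This gave 935 positive and 1791 negative cells, out of 3726 cells in the library and 15289 in the series. The other cells of the library were left out of both groups. They were 705 cells with 1 S100A6 count, which are used as a level in between, and 295 cells below 8000 counts.

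H1299 is an established human line from a non-small cell lung cancer. The treated cells were kept in 500 nM DAC over 72 h, with SB939, also at 500 nM, given for 18 h, and medium was renewed every 24 h. DAC is decitabine, an inhibitor of the DNA methyltransferases, and SB939 inhibits histone deacetylases. The comparison library was H1299 with the solvent DMSO. HCT116, a human colorectal cancer line, with the same treatments made up the other libraries and is used here only for reference. All 4 cultures were at passage 5 to 10, and each was 1 library. Positive and negative cells came from the same culture and the same library, and cells are not replicates. No test was therefore made, and each interval below covers counting error only.

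S100A6, also called calcyclin, is a small calcium-binding protein of the S100 family. S100 proteins pair up, change shape when they bind calcium and then bind partners such as annexins. Most S100 genes lie in a cluster on chromosome 1, and methylation of their promoters accompanies silencing in several tumour types. Decitabine is taken up into DNA during replication and traps DNMT1 there, so that methylation is lost over cell divisions. Histone deacetylase inhibitors raise histone acetylation and slow the cell cycle.

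The promoter windows of 5 genes that the results turn on are given here, because a DNA methyltransferase inhibitor lowers methylation, which lies mostly at CG pairs. Each is the 250 bases before the transcription start in RefSeq on GRCh38.p14, written along the gene's own strand with CG pairs in capitals. They lie at chr1:153535992-153536241 (S100A6, minus strand), chr1:153545807-153546056 (S100A4, minus), chr2:227813592-227813841 (CCL20, plus), chr4:74444886-74445135 (AREG, plus) and chr6:26032100-26032349 (HIST1H3B, minus, named H3C2 in RefSeq).
S100A6: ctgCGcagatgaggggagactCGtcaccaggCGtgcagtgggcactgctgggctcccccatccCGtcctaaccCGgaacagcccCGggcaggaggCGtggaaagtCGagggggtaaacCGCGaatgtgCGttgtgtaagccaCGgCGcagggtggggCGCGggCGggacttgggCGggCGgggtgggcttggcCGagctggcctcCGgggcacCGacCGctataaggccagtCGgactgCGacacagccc
S100A4: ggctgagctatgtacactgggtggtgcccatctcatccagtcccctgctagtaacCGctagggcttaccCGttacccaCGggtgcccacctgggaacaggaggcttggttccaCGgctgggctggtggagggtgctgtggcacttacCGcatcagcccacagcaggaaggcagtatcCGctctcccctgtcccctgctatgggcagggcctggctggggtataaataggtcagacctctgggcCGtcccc
CCL20: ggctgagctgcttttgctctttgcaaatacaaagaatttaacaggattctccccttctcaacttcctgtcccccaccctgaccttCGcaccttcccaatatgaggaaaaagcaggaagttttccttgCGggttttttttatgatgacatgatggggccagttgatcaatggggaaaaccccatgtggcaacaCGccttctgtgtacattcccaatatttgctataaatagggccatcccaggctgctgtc
AREG: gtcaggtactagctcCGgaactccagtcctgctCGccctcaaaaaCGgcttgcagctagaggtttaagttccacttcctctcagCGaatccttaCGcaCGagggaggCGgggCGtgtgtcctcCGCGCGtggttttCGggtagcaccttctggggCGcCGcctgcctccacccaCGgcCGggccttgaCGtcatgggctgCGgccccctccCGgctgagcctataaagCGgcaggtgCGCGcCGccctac
HIST1H3B: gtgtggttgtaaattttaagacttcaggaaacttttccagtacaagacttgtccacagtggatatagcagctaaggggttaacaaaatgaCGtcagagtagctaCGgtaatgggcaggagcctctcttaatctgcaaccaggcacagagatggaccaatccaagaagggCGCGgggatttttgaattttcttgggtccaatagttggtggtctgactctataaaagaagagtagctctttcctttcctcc
The S100A6 window held 24 CG pairs, and 21.3% of 27305 RefSeq promoter windows of that length held more. The median of all windows was 11. The AREG window held 23 CG pairs, against 7 for S100A4, 4 for HIST1H3B and 3 for CCL20. The letters TATAA were found on either strand within the last 50 bases of all 5 windows and in 6.49% of all windows. Among the genes named by rule, 3 of 10 higher ones with a window (AREG, CCL20 and S100A4) and 5 of 10 lower ones held it. The higher genes shown above are these 3, so the 5 windows are no sample of promoters. The median number of CG pairs was 11 in the 10 higher and 13 in the 10 lower windows. Methylation was not measured, and a match to letters is only a description.

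S100A6 counts were spread unevenly over the treated cells. The positive cells held 4670 S100A6 counts, with a median of 3 and a maximum of 74 in a cell. Their summed level was 267 CPM (counts per M counts of the group). For all other genes S100A6 was left out of that total. Of the 935 cells, 352 had exactly 2 counts and 132 had 8 or more. After each of the 3431 cells was thinned to 8000 counts, 32.9% (31.4 to 34.5) still had an S100A6 count and 15.1% had 2 or more. The variance of the thinned counts was 4.19 times their mean. Without thinning, S100A6 was counted in 47.8% of these cells. It had no listed count in any of 3421 DMSO-treated H1299 cells of that depth. In HCT116 it was counted in 3524 of 3524 DMSO cells, with a median of 41 counts, and in 2329 of 2330 treated cells, with a median of 35.

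The S100A6 counts came from an unnumbered and a numbered feature of the gene table, which held 1848 and 3527 counts. Both were present in 593 positive cells, while 138 had only the unnumbered and 204 only the numbered feature. Among cells with the unnumbered feature, 52.4% also had the numbered one, against 22.1% of cells without it. In RefSeq the gene spans chr1:153534599-153535991 on the minus strand of GRCh38. GENCODE v29 has the span starting further upstream, at 153536244, so that the window given above lies inside it, as the S100A4 and CCL20 windows lie inside theirs.

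The groups differed in depth, which the rule can itself bring about since it counts S100A6. The median depth was 17532 counts (quartiles 13881.5 and 22411.5) in positive and 15878 (12419 and 20339) in negative cells. The percentage of positive cells was 21.9% in the shallowest of 10 equal depth classes, 16.0% in the third and 34.9% in the deepest. The S100A6 level showed no such order, at 119 CPM in the shallowest class, 63.2 CPM in the third and 83.1 CPM in the deepest. Next to the threshold, 705 cells had 1 count and 352 had 2. In the 500 counts from the depth minimum upward lay 72 cells, of which 14 were positive and 45 negative. In the 500 counts below it lay 53 unused cells, of which 10 had 2 or more S100A6 counts and 36 had 0. At 8000 counts per cell the median number of genes was 2555 in positive and 2587 in negative cells. The median mitochondrial share was 8.43% and 8.85%, and the ratio of the mitochondrial shares of summed counts was 0.9303.

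**Figure D1:**
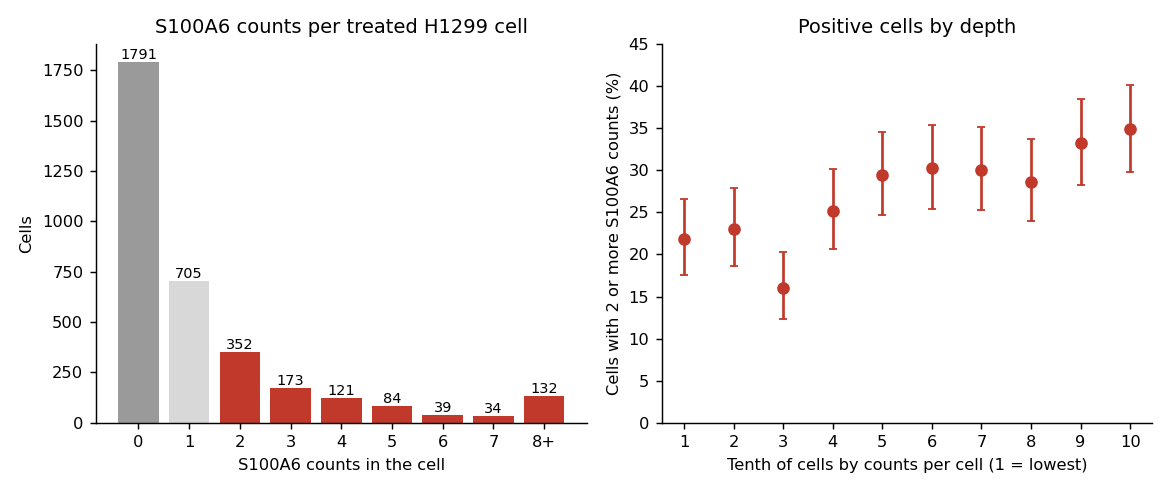
Left, number of treated H1299 cells of at least 8000 counts by S100A6 counts in the cell: 1791 cells had 0 (dark grey), 705 had 1 (light grey) and 935 had 2 or more (red). Right, percentage of cells with 2 or more S100A6 counts in each of 10 equal depth classes, with exact binomial 95% intervals; it was 21.9% in the shallowest and 34.9% in the deepest.

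Since nearly all HCT116 cells had an S100A6 count, the identity of the positive cells was checked first. A set of 8 H1299 genes, picked after their values were seen, summed to 763 CPM in positive and 717 CPM in negative cells. They reached 780 CPM in the 46 cells with 16 or more S100A6 counts, against 6.43 CPM in treated and 0.129 CPM in DMSO-treated HCT116 cells. Their low level in HCT116 can follow from how they were picked. The 10 tested genes of the mesenchymal H1299 marker list summed to 1581 CPM in positive and 1462 CPM in negative cells, with 5 above and 5 below 1. They were at 375 CPM in treated HCT116 cells. The 14 epithelial markers of HCT116, however, were also higher in positive cells. They summed to 54.1 CPM in positive, 39.5 CPM in negative and 64.7 CPM in the cells with 16 or more S100A6 counts, against 1.495 CPM in DMSO-treated H1299. The sums were 117 CPM in treated and 222 CPM in DMSO-treated HCT116. A count of any of them was found in 53.7% of positive, 41.2% of negative, 69.6% of the 46 cells and 2.60% of DMSO-treated H1299 cells, without thinning. Their part in the S100A6 comparison was not tested. Of 67 cells whose barcode also occurred in another library, 22 were positive and 30 negative. Of the 18 that shared it with DMSO-treated HCT116, 11 were positive and 3 negative. Over all 3431 treated H1299 cells, 27.3% were positive and 52.2% negative. Without these 67 cells, all 23 genes named below by rule were still past 1.5-fold in the same direction.

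S100A6-positive cells differed little from negative cells in most genes, and most genes past 1.5-fold had fewer than 500 counts. Among 13510 genes with at least 100 counts, 140 were at least 1.5-fold higher in positive cells (1.04% of genes tested) and 102 at least 1.5-fold lower (0.755%). With at least 500 counts, 11 of 8031 genes were higher (0.137%) and 5 lower (0.0623%). Without the cells high over the chromosome 19 interval described further on, 230 genes were higher and 180 lower. Of the 140 higher genes 100 and of the 102 lower genes 72 were still past 1.5-fold there. Ratios past 2-fold were found for 13 higher genes (0.0962%) and for no lower gene. Most of the higher genes also stood far above their level in DMSO cells. In cells with 1 S100A6 count, which were in neither group, 97 of the 140 stood at least 4-fold above DMSO cells (69.3%), against 9.80% of all genes tested. Of the 102 lower genes 9 did so (8.82%). Of the 11 higher genes with at least 500 counts, 9 did, against 3.76% of all genes at that minimum.

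**Figure D2:**
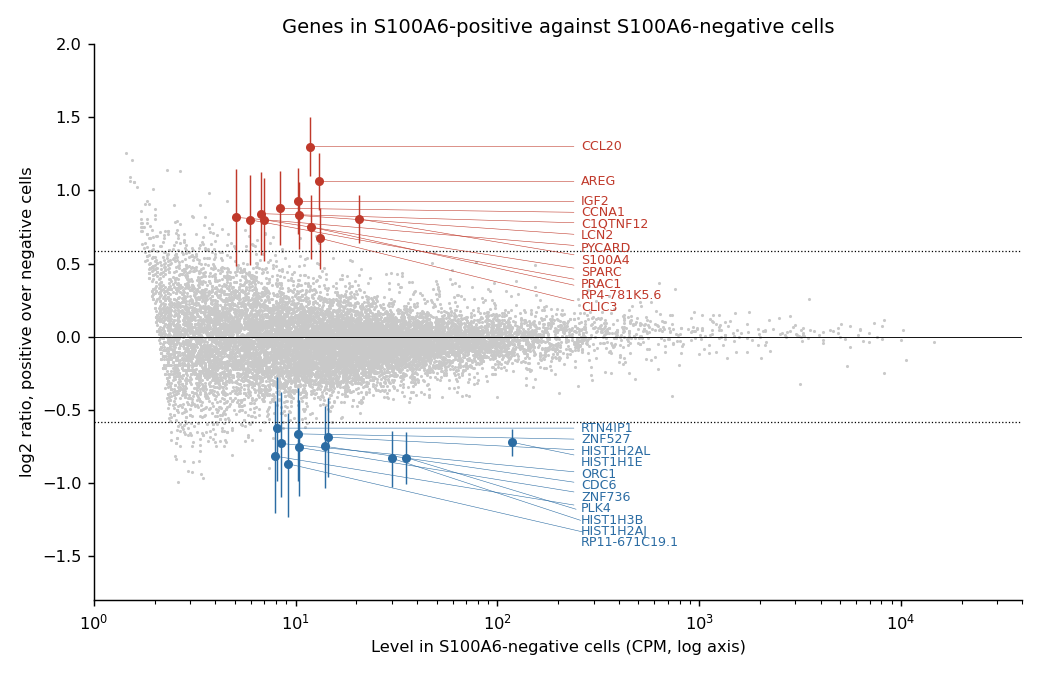
Each point is 1 of 13510 genes: level in S100A6-negative cells (CPM, log axis) against the log2 ratio of positive over negative cells. Coloured points are the 12 higher and 11 lower genes named by rule, with exact counting intervals, dotted lines mark 1.5-fold, and CCL20 stands highest at a ratio of 2.46.

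Among the S100 genes, S100A4 followed S100A6 most closely. S100A4, an S100 protein linked to cell motility, stood at 36.0 CPM in positive cells, 25.8 CPM in cells with 1 S100A6 count and 20.6 CPM in negative cells. It was at 2.77 CPM in DMSO cells. The ratio of positive over negative cells was 1.75 (1.56 to 1.95). At equal depth, 23.4% of positive and 15.02% of negative cells had an S100A4 count. S100P was the other S100 gene past 1.5-fold, at 2.98 against 1.74 CPM and a ratio of 1.72 (1.15 to 2.56). Of 10 S100 genes tested, 9 were above 1, and their median log2 ratio was 0.33 against -0.03 for all genes, of which 43.5% were above 1 and 1.04% past 1.5-fold higher. The abundant S100A10, the partner of annexin A2, was at 949 against 758 CPM, a ratio of 1.25 (1.23 to 1.28). S100A11 had a ratio of 1.21 and S100A16 of 1.405, while S100A3 lay at 0.864 with an interval of 0.588 to 1.25.

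Genes around S100A6 on chromosome 1 were looked at next. Within 500 kb of S100A6, 19 genes were tested. The 6 S100 genes among them had a median log2 ratio of 0.28, with 5 above 1. The other 13 had a median of 0.01, with 9 above 1, against 43.5% of all genes. Chosen after their values were seen, 2 of the 13 show the levels. ILF2, an RNA-binding protein gene in that window, was at 124 against 128 CPM. INTS3, a subunit of the Integrator complex, was at 20.5 against 19.9 CPM. Of 9 genes of proteins that bind S100A6, 5 were above 1, with a median log2 ratio of 0.08, against 43.5% of all genes above 1. Without cells high over the chromosome 19 interval 4 were, with a median of -0.05. ANXA2 had a ratio of 1.12 and ANXA5 of 1.07, while ANXA11 had 0.887 and the co-chaperone STIP1 0.932.

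Among genes with at least 300 counts, CCL20 and AREG had the largest ratios of those named by rule, and several higher genes rested on few cells. CCL20, a chemokine that attracts CCR6-bearing lymphocytes, was at 28.8 CPM in positive and 11.7 CPM in negative cells, a ratio of 2.46 (2.15 to 2.83). It was counted in 8.77% of positive and 3.91% of negative cells at equal depth. In all, 10 positive cells held 47.0% of its counts in that group. AREG, the EGFR ligand amphiregulin, was at 27.2 against 13.1 CPM, a ratio of 2.09 (1.82 to 2.39). Its share of cells was nearer, at 10.5% against 8.99%, and 34.0% of its counts in positive cells lay in 10 cells. LCN2, the iron-siderophore binding lipocalin, was at 18.4 against 10.3 CPM with 40.5% of its positive-cell counts in 10 cells. It was not graded over the S100A6 counts, at 19.5 CPM in cells with 1 count and 8.54 CPM in cells with 2. Of these genes CCNA1, the germline cyclin A1, rested most on few cells, with 63.9% of its positive-cell counts in 10 cells. It was at 15.4 against 8.38 CPM and was counted in 4.49% against 4.13% of cells. CCNA1 was not graded either, at 6.48 CPM in cells with 1 count, 3.48 CPM with 2 and 24.0 CPM with 4 or more. CCL20 was at 0.0472 CPM in DMSO cells, CCNA1 at 1.24 CPM, and AREG and LCN2 were listed at 0.

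In the other higher genes named by rule fewer counts lay in single cells. The 10 cells with most counts held between 14.2% (SPARC) and 21.0% (PRAC1) of the counts in positive cells. IGF2, an imprinted growth factor gene, was at 19.5 against 10.2 CPM, a ratio of 1.90 (1.62 to 2.22), and was counted in 10.6% against 5.70% of cells. SPARC, a matrix protein gene often methylated in tumours, was at 12.1 against 6.94 CPM and counted in 9.73% against 5.03% of cells. PYCARD, the inflammasome adaptor ASC, was at 8.93 against 5.07 CPM. C1QTNF12, a secreted C1q-related protein gene, had a ratio of 1.79, and CLIC3, an intracellular chloride channel protein, one of 1.59. PRAC1 had a ratio of 1.74, but 1.08 when numbered features were left out. RP4-781K5.6, a transcript named only by its clone, had a ratio of 1.68. PYCARD and PRAC1 were listed at 0 in DMSO cells, and SPARC and CLIC3 stood at 0.252 and 0.110 CPM there. C1QTNF12 was at 2.80 CPM in DMSO cells. IGF2 was at 10.1 CPM in DMSO cells low over the chromosome 19 interval described further on, and at 0.344 CPM in high ones. Without positive cells of 16 or more S100A6 counts, CCNA1 and CLIC3 both dropped just under the threshold, to 1.49.

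The genes past 1.5-fold lower in positive cells that were named by rule included 4 histone genes and the replication genes CDC6 and ORC1. HIST1H1E, a linker histone gene, was at 71.9 CPM in positive, 91.9 CPM in 1-count, 119 CPM in negative and 178 CPM in DMSO cells. Its ratio was 0.606 (0.568 to 0.647), and 26.1% of positive against 31.7% of negative cells had a count at equal depth. HIST1H3B, coding for histone H3, was at 19.8 CPM in positive, 35.8 CPM in 1-count and 35.1 CPM in negative cells, a ratio of 0.564 (0.498 to 0.638). HIST1H2AJ had a ratio of 0.562, but 0.889 without numbered features, and HIST1H2AL had 0.621. Of 43 HIST1 genes tested, a family looked up after the values were seen, 35 were below 1 and 6 past 1.5-fold lower, against 56.5% below 1 and 0.755% past 1.5-fold lower of all genes tested. HIST1H4H went the other way, at 45.5 against 33.6 CPM and a ratio of 1.35 (1.23 to 1.49). It was at 35.6 CPM in cells with 4 or more S100A6 counts, 29.3% of its counts in positive cells lay in 10 cells, and its ratio was 1.13 among cells low over the chromosome 19 interval and 1.95 among high ones. Together the 43 HIST1 genes stood at 1710 CPM in positive, 2046 in negative and 2689 in DMSO cells. Most transcripts of these genes end in a stem-loop in place of a poly(A) tail.

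CDC6, which loads the replicative helicase, was at 8.30 CPM in positive, 15.9 in 1-count, 13.9 in negative and 23.4 in DMSO cells, a ratio of 0.595 (0.489 to 0.720). ORC1, of the origin recognition complex, was at 5.09 against 8.45 CPM, and PLK4, the kinase of centriole duplication, at 4.46 against 7.86 CPM. All 25 S phase genes tested were below 1, with a median log2 ratio of -0.23, although only CDC6 was past 1.5-fold; of all genes 56.5% were below 1 and 0.755% past 1.5-fold lower. Among the cells high over the chromosome 19 interval, described further on, 15 of the 25 were above 1, with a median of 0.04. MCM4, a helicase subunit, had a ratio of 0.788 and CHAF1B, of the chromatin assembly factor, 0.763. Of 28 G2/M genes, 27 were below 1, with a median of -0.17. MKI67, the proliferation marker Ki-67, was at 119 against 151 CPM, and H2AFX, a histone variant of DNA damage signalling, at 154 against 201 CPM. Several of these genes were not graded over the S100A6 counts: in 1-count cells CDC6, MKI67 (172 CPM), H2AFX (214 CPM) and MCM4 (66.9 CPM) stood above the negative cells. DNMT1, the target of decitabine, was at 98.3 CPM in positive, 116 CPM in 1-count and 111 CPM in negative cells. Its partner UHRF1 was at 27.6 against 33.3 CPM. The remaining lower genes named by rule were RTN4IP1, a mitochondrial protein gene, the zinc finger genes ZNF736 and ZNF527, and the clone-named RP11-671C19.1. Their ratios were 0.649, 0.592, 0.631 and 0.547.

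The genes were next followed over cells with 0, 1, 2, 3 and 4 or more S100A6 counts. Of 5112 genes with at least 1000 counts, 62 were higher at each step and 98 lower at each step. How many would be so without any tie to S100A6 was not worked out. The 10 rising genes named from the 62 were ranked by these same values, as a description only. These 5 levels share depth with S100A6, at a median of 15878 counts for the first and 18564 for the last. S100A4 had the largest ratio of last over first among the 62, at 20.6, 25.8, 26.9, 30.6 and 45.2 CPM. TGM2, a calcium-dependent transglutaminase, followed with 78.7, 82.3, 88.4, 102 and 135 CPM. TECR, an enzyme of very long chain fatty acid synthesis, ran from 59.6 to 95.8 CPM, and MEG3, an imprinted noncoding RNA, from 124 to 184 CPM. KRT8 ran from 286 to 415 CPM. The others of the 10 were CTC-453G23.5, FAM71E1, CALB2, MT1L and RP11-467L13.7, with last over first between 1.401 and 1.58. CCL20 was at 11.7, 13.4, 16.6 and 17.4 CPM up to 3 counts, and at 42.9 CPM in cells with 4 or more. HIST1H2AJ was lower at each step, from 30.2 to 12.2 CPM, as was HIST1H1E, from 119 to 58.9 CPM. The G2/M gene MKI67 was highest at 1 count, at 172 CPM, and lowest at 4 or more, at 104 CPM.

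Among the other gene lists, epithelial markers and keratins had the highest medians over all cells. All 7 keratins tested were above 1, with a median log2 ratio of 0.35, or 0.22 without cells high over the interval, which is below the metallothioneins' 0.26 there. KRT18 was at 811 against 630 CPM, KRT8 at 363 against 286 CPM and KRT19 at 48.7 against 37.6 CPM. Of the 14 epithelial markers of HCT116, 5 reached 100 counts, and all 5 were above 1, with a median log2 ratio of 0.51 (0.39, with 4 of 5 above 1, without cells high over the chromosome 19 interval). CLDN7, a tight junction claudin, was at 6.24 against 3.34 CPM, a ratio of 1.87 (1.41 to 2.47), and CLDN3 was at 27.1 against 18.96 CPM. All 9 metallothioneins tested, which bind zinc and copper, were above 1, with a median log2 ratio of 0.25, though 3 of them were below 1 without cells high over the interval. Their most abundant member MT2A, however, was at 3338 against 3277 CPM. Of 22 interferon-stimulated genes 15 were above 1 and 3 past 1.5-fold, namely BST2 at 1.63, IFIT1 at 1.57 and IFI27 at 1.56. Of all genes tested 43.5% were above 1 and 1.04% past 1.5-fold higher. IFI27 was at 0.978 when numbered features were left out. SLC2A3, the neuronal-type glucose transporter, had a ratio of 1.49 (1.38 to 1.61) at 72.2 against 48.3 CPM, while the 20 glycolysis genes had a median log2 ratio of 0.04. The 12 AP-1 and immediate early genes split evenly, with 6 above and 6 below 1, and JUN was at 50.7 against 61.9 CPM. The 26 actin cytoskeleton and galectin genes had a median of 0.06, the 84 ribosomal protein genes one of 0.01 and the 12 genes of MHC class I presentation one of 0.07.

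**Figure D3:**
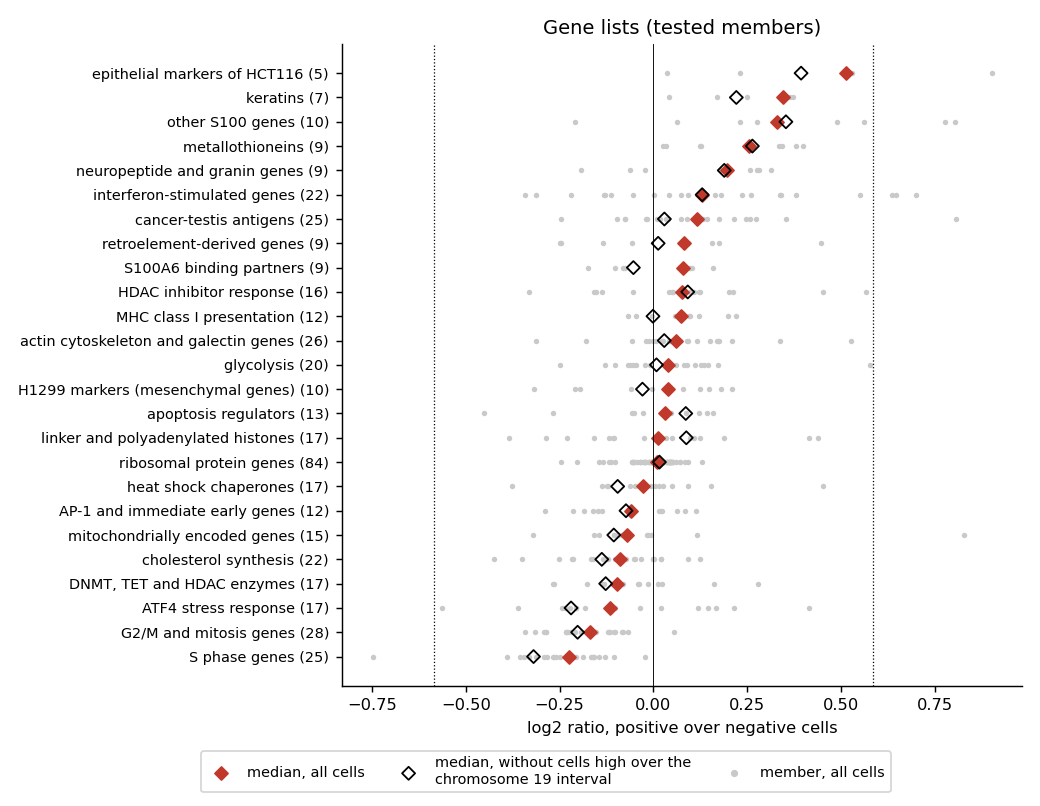
log2 ratio of positive over negative cells for the tested members (grey dots, number in brackets) of 25 gene lists, with the median over all cells (red) and without cells high over the chromosome 19 interval described in the text (open); dotted lines mark 1.5-fold. S phase genes lie lowest, with a median of -0.23, and epithelial markers of HCT116, keratins and S100 genes highest, at 0.51, 0.35 and 0.33.

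Genes of a single stretch of chromosome 19 were also lower in positive cells. This interval was noticed in the data and its edges were set after the values were seen, from DMSO-treated H1299 cells. It ran from UQCRFS1 to DMWD, at chr19:29205321-45792802 on GRCh38. Of 187 genes in it with at least 500 counts, 167 were below 1 (89.3%), and their median ratio was 0.883. On the rest of chromosome 19, 195 of 393 genes were below 1 (49.6%), with a median ratio of 1.00. Over all 8031 genes with at least 500 counts, 59.0% were below 1. The small ribosomal subunit genes RPS19 and RPS16 lie in it, and were at 6980 against 8283 CPM and 4674 against 5380 CPM.

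H1299 cells fell into 2 modes by this interval, with and without treatment. Each cell was scored by its counts over genes between 30 and 44 Mb of chromosome 19, divided by its counts over genes in the first 20 Mb, leaving out ZNF and ribosomal protein genes. The lowest point between the modes in DMSO cells, at a log2 value of -0.85, separated high from low cells. The score is a range with cells at the threshold: 160 of 3421 DMSO cells and 296 of 3431 treated cells lay within 0.2 of it. High cells made up 25.4% (24.0 to 26.9) of DMSO-treated and 27.5% (26.1 to 29.1) of treated H1299, against 0.227% of DMSO-treated HCT116 and 1.67% of treated HCT116. In DMSO cells the 81 tested genes of the interval outside the score were a median of 2.92-fold higher in high than in low cells, against 1.03-fold for the rest of the chromosome. The splicing gene SNRPD2 was at 2654 against 824 CPM, the repair gene ERCC1 at 236 against 54.2 CPM and DMWD at 55.1 against 14.1 CPM. SYMPK, a polyadenylation factor gene just past that edge, was at 26.1 against 27.1 CPM. The interval's edges were set from these same DMSO cells, so these contrasts are a description and no check of the edges. DNA copy number was not measured.

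S100A6-positive cells held fewer of the high cells. They made up 22.6% (19.9 to 25.4) of positive, 26.95% (23.7 to 30.4) of 1-count and 30.4% (28.2 to 32.6) of negative cells. Conversely 22.3% of high cells and 29.1% of low cells were positive. High cells were the deeper ones, at a median of 18806 against 15754.5 counts. At 8000 counts per cell, 27.3% (24.5 to 30.3) of high and 35.1% (33.2 to 37.0) of low cells had an S100A6 count. Among low cells alone, the interval's genes had a median ratio of 0.997, with 97 of 187 below 1 (51.9%). All 8031 genes with at least 500 counts had a median ratio of 0.9701 among low cells, with 62.7% below 1. The interval's genes were thus not lower than other genes there, and RPS19 had a ratio of 1.01. Among high cells the interval's genes had a median ratio of 0.965, against 1.009 for all genes, and RPS19 and RPS16 were at 0.894 and 0.918. The S phase list had a median log2 ratio of -0.32 among low cells, with all 25 genes below 1, but of 0.04 among high cells, with 15 of 25 above 1. MCM4 was at 0.706 among low and 1.03 among high cells, and UHRF1 at 0.728 and 1.14. The G2/M list had medians of -0.20 and -0.06. The S100 list was above 1 in both, at 0.35 and 0.30, and S100A4 had ratios of 1.63 and 1.88.

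Some ratios differed between low and high cells, a difference that was not tested. CCL20 had a ratio of 2.54 among low and 1.04 among high cells, the latter from only 31 counts in positive and 70 in negative cells. HIST1H3B had 0.422 among low and 0.905 among high cells, whereas HIST1H1E had 0.647 and 0.611. IGF2 was at 17.9 CPM in low and 1.18 CPM in high treated cells. Its ratio was 1.67 among low and 3.36 among high cells, the latter from only 10 counts in positive and 7 in negative cells. CALB2, the calcium-binding protein calretinin, was at 141 CPM in low and 29.6 CPM in high treated cells. Its ratio was 1.29 over all, 1.14 among low and 1.62 among high cells. ZNF527, which lies in the interval, had a ratio of 0.631 over all cells. It had 0.724 among low and 0.679 among high cells, and so missed the threshold in both. RTN4IP1 missed it among low cells, at 0.696 against 0.649 over all. RP11-671C19.1 was at 3.27 CPM in low and 17.2 CPM in high treated cells, with ratios of 0.528 and 0.709.

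**Figure D4:**
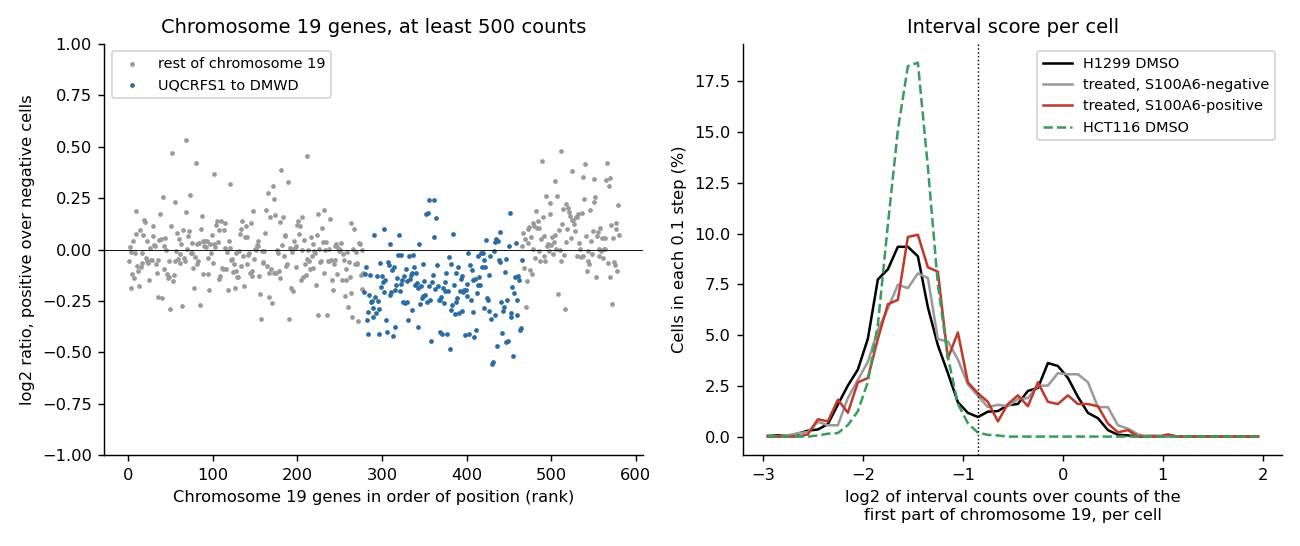
Left, log2 ratio of positive over negative cells for chromosome 19 genes with at least 500 counts in order of position; the 187 genes from UQCRFS1 to DMWD (blue) have a median ratio of 0.883. Right, percentage of cells by the interval score (log2, steps of 0.1), with the dotted line at -0.85; high cells were 22.6% of positive, 30.4% of negative and 25.4% of DMSO-treated H1299 cells.

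TE transcripts were slightly higher in positive cells, and by more where cells high over the chromosome 19 interval were left out. TE counts made up 3.32% of counts in positive and 3.02% in negative cells, a ratio of 1.10 (1.096 to 1.104). The ratio was 1.19 among low and 1.02 among high cells, and high cells had the larger TE share, at 3.73% against 2.84%. By level of S100A6 the share was 3.02%, 3.05%, 3.24%, 3.32% and 3.38%. The LTR12 group, which supplied most TE counts, had a ratio of 1.09. THE1 and MST, both MaLR groups, had 1.21 and 1.22, the MLT group 1.13, Alu 1.10 and L1 1.04. Of 224 TE families with at least 100 counts, 12 were at least 1.5-fold higher (5.36% of families tested) and 0 lower. With at least 500 counts, 2 of 108 were higher (1.85%), and 1 of 224 was past 2-fold (0.446%).

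LTR7, the long terminal repeat of the endogenous retrovirus HERVH, had the highest ratio among families with at least 300 counts. It was at 42.5 CPM in positive and 22.1 CPM in negative cells, a ratio of 1.92 (1.73 to 2.14). Its relative LTR7Y was at 9.67 against 5.07 CPM, a ratio of 1.91 (1.52 to 2.39), but at 3.44 CPM in 1-count cells. The HERVH family itself had a ratio of 1.07 (0.981 to 1.17). A single locus held 70.6% of LTR7 counts, and the other loci together had a ratio of 1.80 (1.48 to 2.19). LTR10F was at 65.6 against 40.5 CPM, a ratio of 1.62, but 1.09 (0.957 to 1.24) without its most counted locus. MER52D had a ratio of 1.55 and MER52C of 1.35. The abundant LTR12C was at 19653 against 18034 CPM, a ratio of 1.09. The lowest ratio among the families named by rule was that of L1MC4_3end, at 0.838 (0.715 to 0.982).

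Of 666 single TE loci with at least 300 counts, 27 were at least 1.5-fold higher (4.05% of loci tested) and 3 lower (0.450%), and the median ratio was 1.09. An LTR12 locus had the highest ratio, with 1552 counts in positive and 771 in negative cells, or 88.8 against 25.2 CPM, a ratio of 3.52 (3.23 to 3.84). It was counted in 84 of 935 positive cells, 8.98% (7.23 to 11.002), and in 87 of 1791 negative cells, 4.86% (3.91 to 5.96), without thinning. In all, 10 positive cells held 62.0% of its counts there, and 217 lay in a single cell. Without this locus the LTR12 family, at 1.10 with it, had a ratio of 0.990 (0.966 to 1.02). Without its most counted locus, which had a ratio of 0.716, the family had a ratio of 1.185 (1.155 to 1.216). A THE1C locus was spread more widely, in 25.6% of positive and 16.4% of negative cells, and had a ratio of 1.76 (1.55 to 1.997). The loci carry no coordinates in the deposited tables and were not placed in the genome.

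**Figure D5:**
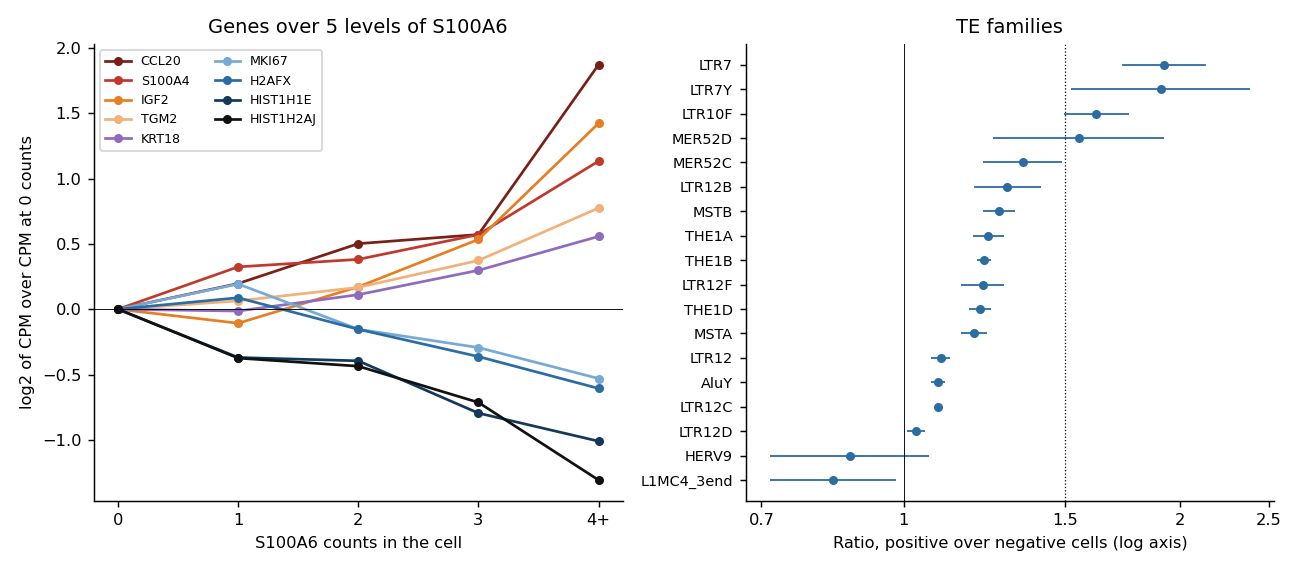
Left, log2 of the CPM of 9 genes over their CPM in cells with 0 S100A6 counts, at 0, 1, 2, 3 and 4 or more counts; CCL20 ends highest (11.7 to 42.9 CPM) and HIST1H2AJ lowest (30.2 to 12.2 CPM). Right, ratio of positive over negative cells (log axis) for TE families with exact counting intervals; the solid line marks 1 and the dotted line 1.5, and LTR7 stands highest at 1.92.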

How the data were processed

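The authors deposited whole-number counts for genes and for transposable elements, with 1 line for each feature seen in a cell. Per the submitters' processing notes, CASAVA and STAR were used with GRCh38. For the counting tool, the cell filter and the use of unique molecular identifiers: not given in the sources used here. Library names in the cell names assigned every cell. Numbered features of a gene were added to it, and names joining several genes (11.8% of gene counts) were tested in an alternative. In each library no numbered gene feature was listed with a total below 10 counts, while unnumbered ones were listed from 1, so a gene listed at 0 is no measured absence.

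Counts were summed per group and divided by the total without S100A6, using Python 3.11.15, numpy 2.4.6, scipy 1.17.1 and pandas 2.3.3. Group totals were 17471716 and 30544107. Ratios have exact conditional binomial and shares exact Clopper-Pearson 95% intervals. The ratio script was tested on simulated data. 1 gene of the HCT116 marker list is not reported here, and that list was recomputed over its other 14 members. No doublet caller was run, and no test was made because each group is part of 1 library.

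Members and gene lists were chosen with earlier results of these data known. Named genes had at least 300 counts and were past 1.5-fold as counted, thinned to 8000 counts and weighted by depth: up to 12 higher and 12 lower ones (11 qualified) by the interval bound nearest 1, and the 6 each way with the largest CPM difference. Named too were up to 4 genes per list by that bound, the 10 most steadily rising over S100A6 levels, and the 5 highest and 5 lowest TE families. The HIST1 family, the H1299 genes of the identity check and the chromosome 19 interval and its genes, and ILF2, INTS3, MT2A, S100A3 and S100P were chosen after values were seen. Positions come from GENCODE v29 on GRCh38.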

Additional observations from a re-analysis of the deposited data

How the results depend on the processing

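No paired analysis was possible because each group is part of 1 library and no fit was made. Results were recomputed under 15 alternatives, 3 of them chosen after seeing the data: without cells sharing a barcode with another library, without positive cells of 16 or more S100A6 counts, and without cells high over the chromosome 19 interval. All 345 values of the 23 genes past 1.5-fold named by rule were on the same side of 1, and 7 of the 23 were past 1.5-fold under all 15. Thinning and weighting by depth were also part of the naming rule, so the outcome under them was fixed by it. With 1 or more S100A6 counts as positive, 15 of them missed 1.5-fold. Of 375 list medians 352, of 150 TE family values 144 and of 1590 values of other named genes 1579 were on the same side of 1. IFI27 reversed from 1.56 to 0.978 with numbered features left out. The causes were not tested.

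Against 140 higher and 102 lower genes, there were 282 and 342 after thinning to 8000 counts, 63 and 25 with 1 or more S100A6 counts, 242 and 231 with 3 or more, and 295 and 255 with numbered features left out. They were 230 and 180 without cells high over the interval, 13 and 0 at 2-fold, 11 and 5 at 500 or more counts, and 6611 and 7086 at 1 or more. Against 12 higher TE families there were 3 with 1 or more S100A6 counts, 1 at 2-fold, 2 at 500 or more counts and 47 at 1 or more. Against 0 lower ones there were 6 after thinning, 6 with 3 or more S100A6 counts, 1 with no minimum per cell, 2 without the deepest 5% of cells, 2 without cells high over the interval, and 26 at 1 or more counts.

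The TE share ratio, 1.10, was 1.127 thinned, 1.126 as a mean over cells, 1.06 with 1 or more and 1.115 with 3 or more S100A6 counts, and 1.09 for cells of at least 12000 counts. It was 1.129 without the deepest 5%, 1.09 without mitochondrial and ribosomal protein genes in the total, 1.119 with numbered features left out, 1.105 without shared barcodes, 1.095 without cells of 16 or more S100A6 counts and 1.19 without cells high over the interval. In the same order LTR12C, at 1.09, was 1.133 thinned, 1.134 as a mean over cells, 1.07 with 1 or more S100A6 counts, 1.07 from 12000 counts, 1.095 with no minimum, 1.134 without the deepest 5%, 1.08 without mitochondrial and ribosomal genes, 1.11 with numbered features left out, 1.098 without shared barcodes and 1.21 without cells high over the interval. The mitochondrial share ratio, 0.9303, was 0.9205 thinned, 0.977 weighted by depth, 0.9205 as a mean over cells, 0.952 with 1 or more and 0.908 with 3 or more S100A6 counts, 0.947 from 12000 counts and 0.914 with no minimum. It was 0.939 without the deepest 5%, 0.947 without cells above 25% mitochondrial counts, 0.922 without mitochondrial and ribosomal genes, 0.918 with numbered features left out and 0.921 without cells high over the interval. A gene at 100 counts has a wide counting interval, as for S100P and S100A3.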
